A study of Mus musculus with 3 samples.

Results

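The genes described here are 38 interferon-stimulated antiviral effectors of the mouse, picked by gene symbol from a table of 24067 genes. All 38 had a row in the table. Of these, 37 had a mean of at least 1 FPKM over the 3 libraries and were compared, as were 10358 genes in all. FPKM counts sequenced fragments scaled by transcript length and library size, so levels are per length. Ifi44 did not pass, at 0.616 FPKM in sheared Ift88 shRNA cells, 0.533 in sheared control shRNA cells and 0.862 in static control shRNA cells. The set holds 2 Mx genes, 3 Ifit genes, 5 Oas genes, 3 cytoplasmic RNA sensors, 3 genes of the ISG15 system, 5 immunity-related or guanylate-binding GTPases, 4 genes of the Parp group (with Dtx3l) and 13 other effectors.

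Bulk RNA-seq was run on primary mouse pre-osteoclasts, mononuclear cells of the osteoclast lineage that carry tartrate-resistant acid phosphatase, grown from bone with M-CSF and RANKL for 2 days. The question was what orbital shear stress, fluid flow made by a rotating dish, changes in these cells, and what part Ift88, an intraflagellar transport protein needed to build the primary cilium, has in it. The first library came from Ift88 shRNA cells sheared for 24 hours, the second from control shRNA cells sheared for 24 hours, and the third from control shRNA cells that were not sheared. The knockdown was made before differentiation; the labels used here give no mouse strain or age, no number of animals, and no shRNA sequence or means of delivery.

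Each group was 1 library, so no difference below has a replicate check, no p-value was computed, and the culture and the condition cannot be told apart. A static library with Ift88 shRNA was not analysed here, so the response to shear within knocked-down cells was not measured. In bulk RNA, fewer cells of a type and less RNA per cell cannot be told apart. Ift88 itself (gene ID 21821) was at 1.197 FPKM in sheared Ift88 shRNA cells, 2.71 in sheared control shRNA cells and 2.98 in static control shRNA cells. The knockdown ratio of Ift88 was 0.442, with a counting interval of 0.354 to 0.549. That is the direction its label gives, and the knockdown was partial. Libraries were of like depth, at an estimated 34800000 to 35500000 fragments.

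Type I interferons bind a receptor whose kinases activate transcription factors, and these bind the interferon-stimulated response element (ISRE) in the promoters of antiviral genes. Interferon gamma acts mainly at gamma-activated sites. The effector proteins bind or cut viral RNA, block translation, trap budding particles, attack pathogen-containing vacuoles, or sense RNA and keep the response going. In the osteoclast lineage RANKL induces some interferon beta, and interferon signalling is known to restrain osteoclast formation.

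The effectors were expressed at ordinary levels. Their median was 14.5 FPKM, against 11.03 FPKM over all genes compared. Bst2 encodes tetherin, a membrane protein that holds budding virions on the cell surface, and stood far above the rest. Bst2 was at 319 FPKM in sheared Ift88 shRNA cells, 311 in sheared control shRNA cells and 331 in static control shRNA cells. In mean level it was followed by Oas1a, at 56.4, 57.0 and 59.0 FPKM in the same order of libraries. The lowest of the 37 were Mx2 and Phf11d, between 2.42 and 3.88 FPKM in every library.

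**Figure D1:**
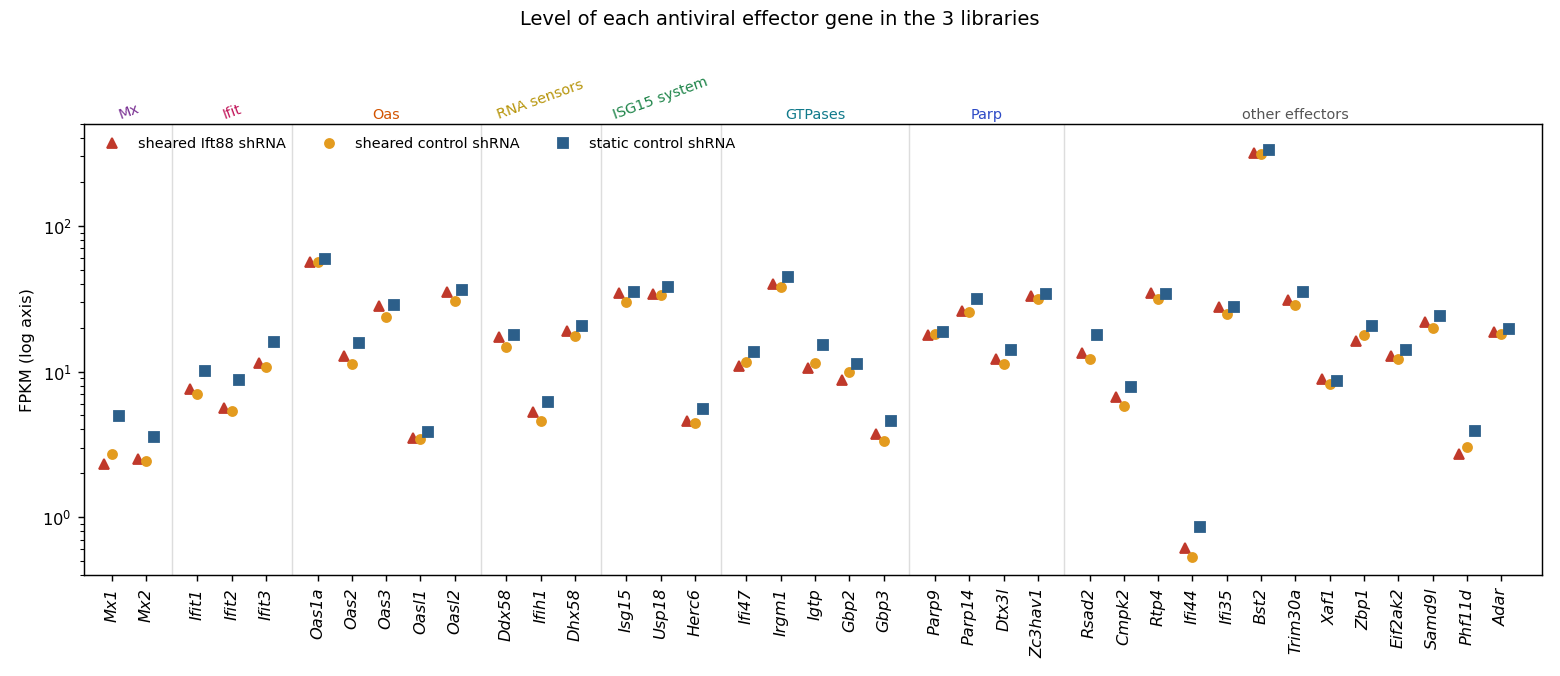
The FPKM of each of the 38 genes (log axis) in sheared Ift88 shRNA cells (triangles), sheared control shRNA cells (circles) and static control shRNA cells (squares), 1 library each, by subfamily. The square is the highest of the 3 symbols for most genes, and the gap is widest for Mx1, at 2.30, 2.70 and 4.94 FPKM.

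In the shear comparison, which set sheared against static cells with control shRNA, all 37 effectors were lower in sheared cells. Of all genes compared, 53.9% were lower and 46% higher. On the scale of log2(FPKM + 1), used for every log2 ratio here, the median of the effectors was -0.26, against -0.01 over all genes, and their values ran between -0.68 for Mx1 and -0.03 for Parp9. At least 1.2-fold lower were 17 of the 37, against 2.26% of all genes, and none was at least 1.2-fold higher, against 1.94% of all genes. The 17 were both Mx genes, the 3 Ifit genes, Oas2, Ifih1, Herc6, Igtp, Gbp3, Parp14, Dtx3l, Rsad2, Cmpk2, Trim30a, Samd9l and Phf11d. Nearest inside that limit lay Samd9l and Herc6, both at -0.27, and nearest outside it Ddx58 and Oas3, both at -0.26.

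The differences were small in size. Counted from the lowest log2 ratio of 10358 genes, Mx1 was at rank 25, Ifit2 at 29, Ifit3 at 35, Rsad2 at 41, Ifit1 at 50, Oas2 at 62, Mx2 at 72 and Igtp at 73. On that scale only Mx1 and Ifit2 were at least 1.5-fold lower, against 0.290% of all genes. No effector was 2-fold lower, against 0.164% of all genes. For 31 of the 37 the counting interval of the FPKM ratio lay below 1, against 17.9% of the genes that had one, and it lay above 1 for none, against 14% of genes. That interval is a 95% Clopper-Pearson interval on fragments estimated from the FPKM steps; it covers counting error only and no spread between cultures.

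In the knockdown comparison, sheared Ift88 shRNA cells against sheared control shRNA cells, none of the 37 was at least 1.2-fold higher, against 3.25% of all genes, and none at least 1.2-fold lower, against 2.29%. By any amount, 29 of the 37 were higher with Ift88 shRNA, against 53.6% of all genes, and 8 were lower, against 46.4%. The 8 were Mx1, Oas1a, Ifi47, Igtp, Gbp2, Parp9, Zbp1 and Phf11d. The median of the effectors was 0.07, against 0.01 over all genes, and their values ran between -0.16 for Mx1 and 0.25 for Oas3. The counting interval lay above 1 for 14 effectors, against 18.4% of genes. It lay below 1 for 1 effector, Gbp2, against 13.6% of genes.

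Sheared Ift88 shRNA cells were also set against static control shRNA cells, a comparison in which both shear and the shRNA differ. Here 13 of the 37 effectors were at least 1.2-fold lower, against 4.48% of all genes, and none was at least 1.2-fold higher, against 4.79%. The 13 were the Mx and Ifit genes, Oas2, Ifi47, Igtp, Gbp2, Parp14, Rsad2, Zbp1 and Phf11d. The median was -0.19, against 0.00 over all genes, and the values ran between -0.85 for Mx1 and 0.05 for Xaf1. By any amount 34 were lower, against 50.1% of all genes, and 3 higher, against 49.8%. The counting interval lay below 1 for 26, against 19.6% of genes, and above 1 for none, against 21.2%. The sheared control library stands on top of the ratio in the shear comparison and below the line in the knockdown comparison, and each library enters 2 of the 3 comparisons, so the values are given side by side and not as independent results.

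**Figure D2:**
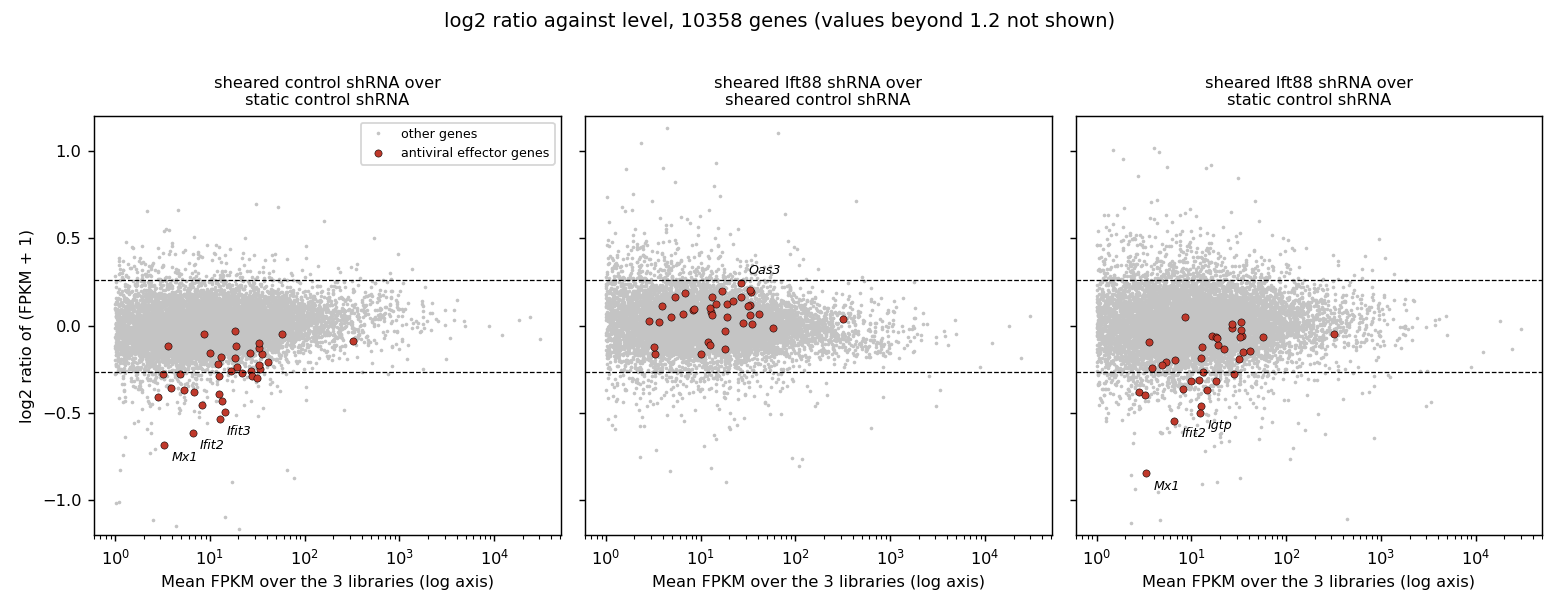
The log2 ratio of FPKM + 1 against the mean FPKM over the 3 libraries (log axis) for antiviral effectors (red) and other genes (grey), 1 panel for each comparison, with dashed lines at 1.2-fold. In the left panel all 37 red points lie below 0 and 17 lie below the lower dashed line; in the middle panel all lie between the lines; in the right panel 13 lie below.

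**Figure D3:**
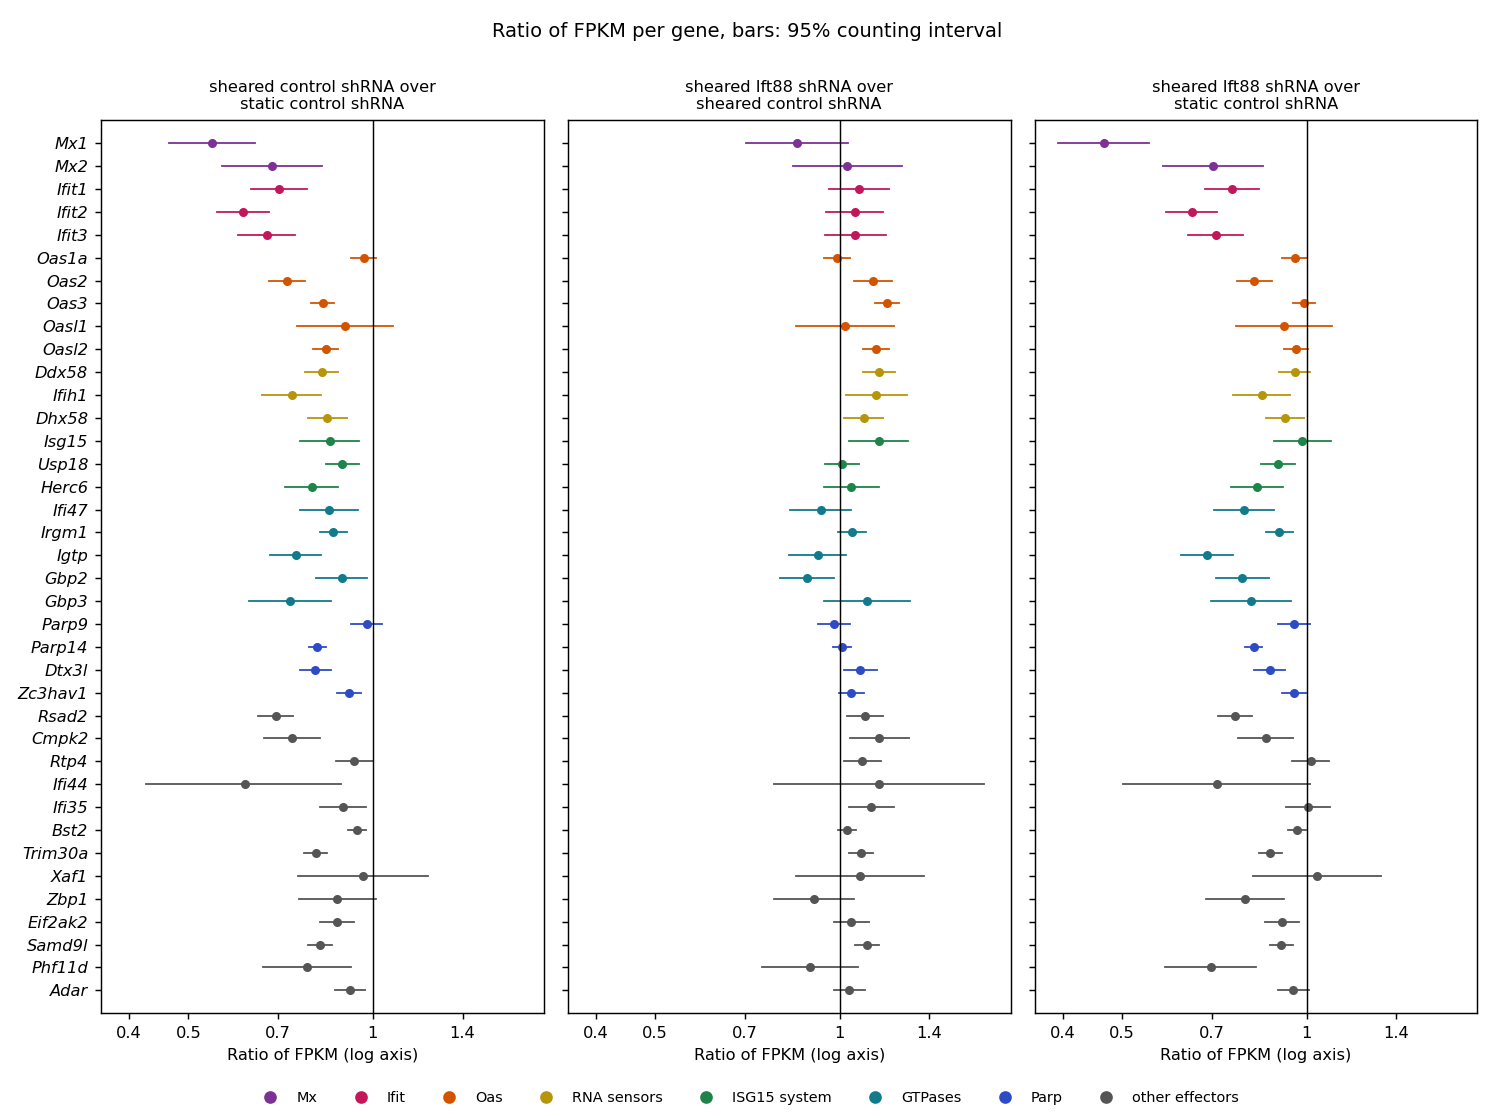
The ratio of FPKM (log axis) of each of the 38 genes in the 3 comparisons, coloured by subfamily, with bars for the 95% counting interval. In the left panel Mx1 is at 0.547 and Ifit2 at 0.614, while in the middle panel the points lie between 0.853 for Mx1 and 1.19 for Oas3.

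The promoters of the effectors were read for the 2 interferon motifs. The genes were picked as interferon-stimulated, so a high share with these motifs goes with that choice. Such a share is not a result about shear. RefSeq promoter windows of build GRCm38.p6, running 250 bases before to 50 bases after a gene's start, were used for 29 of the 38 genes. No window was used for Mx1, Mx2, Oas2, Dhx58, Usp18, Parp9, Parp14, Rtp4 and Zbp1. The ISRE core was searched on both strands as TTTC, any 2 bases and TTTC, which reads GAAA, any 2 bases and GAAA on the other strand. It was found for 15 of the 29 genes, 51.7%, against 3.99% of the 27025 genes with a window. A gene counted if any of its windows held a match. The gamma-activated site was searched as TTCNNNGAA, which reads the same on both strands. It was found for 7 of the 29 genes, 24.1%, against 9.55% of all genes with a window. A gamma-activated match can overlap an ISRE core match, as in the Bst2 window. A match is a string of letters and not a measured binding site.

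The 170 bases before the start are printed for 8 of the 15 genes, chosen to show how the core sits in different subfamilies, each 5′ to 3′ along the gene's strand with the ISRE core matches in capitals. They lie at chr19:34640719-34640888 for Ifit1 (plus strand), chr19:34583359-34583528 for Ifit3 (plus strand), chr5:120777660-120777829 for Oas3 (minus strand), chr4:156200819-156200988 for Isg15 (minus strand), chr12:26456453-26456622 for Rsad2 (minus strand), chr11:48871421-48871590 for Irgm1 (minus strand), chr11:58199386-58199555 for Igtp (plus strand) and chr3:142620493-142620662 for Gbp2 (plus strand).
Ifit1: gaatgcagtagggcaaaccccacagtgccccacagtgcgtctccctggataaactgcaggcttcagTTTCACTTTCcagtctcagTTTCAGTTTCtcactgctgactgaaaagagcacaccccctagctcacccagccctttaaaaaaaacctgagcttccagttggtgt
Ifit3: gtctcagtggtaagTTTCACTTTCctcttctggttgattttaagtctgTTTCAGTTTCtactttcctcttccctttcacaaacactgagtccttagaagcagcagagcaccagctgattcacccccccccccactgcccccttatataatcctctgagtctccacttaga
Oas3: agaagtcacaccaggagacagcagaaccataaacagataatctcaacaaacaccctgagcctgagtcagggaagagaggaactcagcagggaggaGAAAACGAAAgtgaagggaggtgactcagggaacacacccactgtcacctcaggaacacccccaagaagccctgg
Isg15: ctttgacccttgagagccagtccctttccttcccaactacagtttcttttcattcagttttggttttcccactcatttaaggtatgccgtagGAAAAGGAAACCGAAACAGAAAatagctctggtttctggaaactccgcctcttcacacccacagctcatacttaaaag
Rsad2: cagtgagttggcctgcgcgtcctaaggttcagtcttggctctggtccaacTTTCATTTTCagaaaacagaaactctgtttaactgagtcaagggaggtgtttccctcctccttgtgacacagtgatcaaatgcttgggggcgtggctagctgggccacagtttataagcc
Irgm1: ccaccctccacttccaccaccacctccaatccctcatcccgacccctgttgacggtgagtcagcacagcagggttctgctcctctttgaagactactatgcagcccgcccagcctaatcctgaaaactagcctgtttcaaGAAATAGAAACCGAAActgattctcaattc
Igtp: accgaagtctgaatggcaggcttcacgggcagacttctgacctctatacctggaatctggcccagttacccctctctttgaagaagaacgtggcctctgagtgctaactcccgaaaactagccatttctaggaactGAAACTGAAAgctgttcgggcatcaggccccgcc
Gbp2: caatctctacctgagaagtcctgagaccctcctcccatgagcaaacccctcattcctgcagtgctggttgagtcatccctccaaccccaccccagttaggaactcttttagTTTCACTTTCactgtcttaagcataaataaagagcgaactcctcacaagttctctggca

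Ifit1 and Ifit3 each held 2 separate cores, and both have the same order of TTTCACTTTC first and TTTCAGTTTC nearer the start. In Isg15 and Irgm1 the capitals are runs of overlapping matches, while Oas3, Rsad2, Igtp and Gbp2 held 1 match each. Counted from the start site, the first base of the first core is at -30 in Irgm1, at -34 in Igtp and, farther off, at -120 in Rsad2. The 15 effectors with a core had a median log2 ratio of -0.26 in the shear comparison, and the 13 compared effectors whose window held none had -0.25. Ifit2, one of the lowest of all in sheared cells, had no core in its window.

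**Figure D4:**
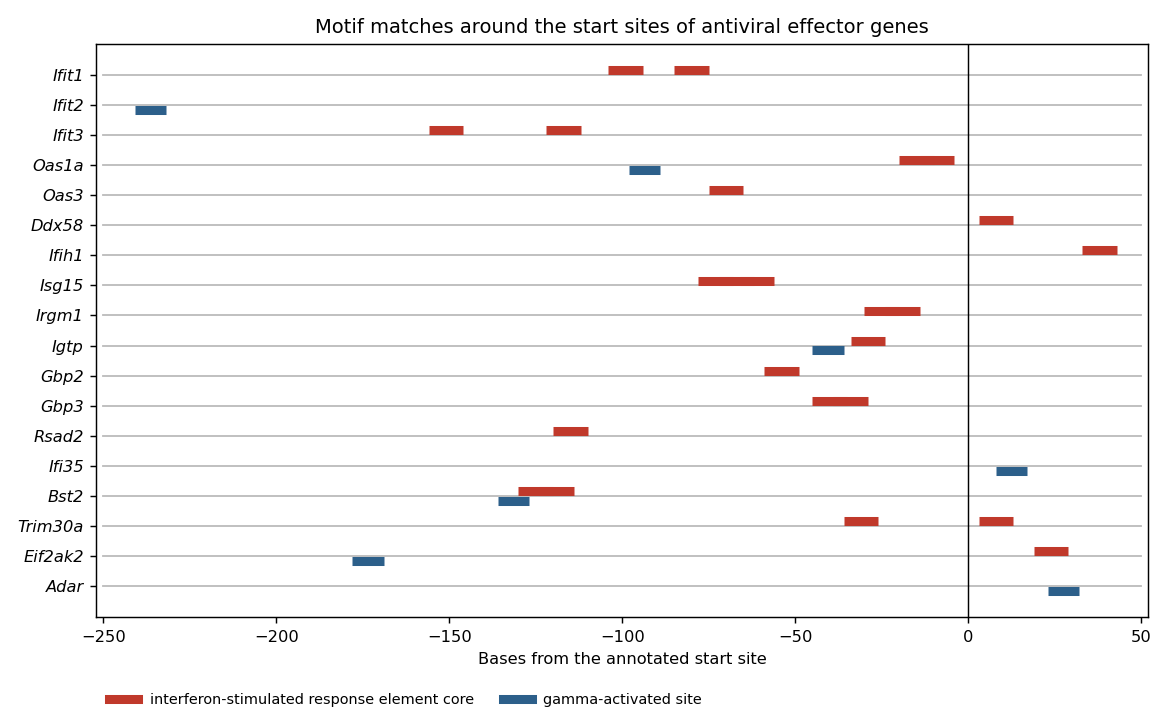
Positions of ISRE core matches (red) and gamma-activated matches (blue) in bases from the annotated start site, for the 18 effectors with at least 1 match. Most red bars lie before the start site, and Ddx58, Ifih1, Trim30a and Eif2ak2 have 1 after it. The Trim30a matches, at -36 and 3, come from windows at different start sites and are drawn on the same line.

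The Mx genes encode dynamin-like GTPases that block viral ribonucleoproteins; mouse Mx1 acts in the nucleus and Mx2 in the cytoplasm. Mx1 (gene ID 17857, chromosome 16, 97447035 to 97462906 in GRCm38) was at 2.30 FPKM in sheared Ift88 shRNA cells, 2.70 in sheared control shRNA cells and 4.94 in static control shRNA cells. Static cells thus held the most Mx1 and the knocked-down cells the least. The Mx1 shear ratio was 0.547 (counting interval 0.465 to 0.642), the lowest of the 37. The knockdown ratio of Mx1 was 0.853 (0.704 to 1.03), an interval that includes 1, and its ratio of sheared Ift88 shRNA to static cells was 0.467 (0.393 to 0.553). Mx2, 73174 bases away, was at 2.49, 2.42 and 3.53 FPKM in the same order. Its shear ratio was 0.685 (0.566 to 0.827), and the 2 sheared libraries were close to each other (knockdown ratio 1.03, 0.838 to 1.26).

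The Ifit genes encode tetratricopeptide proteins that bind viral RNA or hold back its translation, and lie in 1 cluster on chromosome 19. All 3 had the same pattern, lower in both sheared libraries than in the static one and slightly higher with Ift88 shRNA than with control shRNA. Ifit2 (gene ID 15958) was at 5.66 FPKM in sheared Ift88 shRNA cells, 5.35 in sheared control shRNA cells and 8.71 in static control shRNA cells, a shear ratio of 0.614 (0.558 to 0.676). Ifit3 was at 11.4, 10.7 and 16.0 FPKM, a shear ratio of 0.671 (0.603 to 0.745). Ifit1, which binds RNA with a foreign 5′ end, was at 7.57, 7.04 and 10.02 FPKM, a shear ratio of 0.703 (0.633 to 0.781). Knockdown ratios of the 3 were 1.06 to 1.08, with counting intervals that all include 1. Ifit1 and Ifit3 have near-identical neighbours, so reads may have been split between copies and their single values are uncertain.

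Oas1a, Oas2 and Oas3 belong to the oligoadenylate synthetases, which sense double-stranded RNA and make the messenger that activates RNase L. Here the 5 members of the Oas group, which includes Oasl1 and Oasl2, differed among themselves. Oas2 was at 12.8 FPKM in sheared Ift88 shRNA cells, 11.3 in sheared control shRNA cells and 15.6 in static control shRNA cells, a shear ratio of 0.725 (0.677 to 0.776). Its neighbour Oas3, 3211 bases away, was at 28.3, 23.7 and 28.6 FPKM, so that the sheared control library stood below the other two. Oas3 had the highest knockdown ratio of all effectors, 1.19 (1.14 to 1.25), and a ratio of sheared Ift88 shRNA to static cells of 0.989 (0.949 to 1.03). Oasl2, a synthetase-like relative, showed the Oas3 pattern at 35.0, 30.5 and 36.4 FPKM. Oas1a was nearly level, at 56.4, 57.0 and 59.0 FPKM with a shear ratio of 0.966 (0.922 to 1.01); it has near-identical copies and its value is uncertain. Oasl1, at 3.44 to 3.82 FPKM, had intervals that include 1 in all 3 comparisons.

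The 3 RNA sensors were lowest in the sheared control library. Ifih1, which encodes MDA5, a helicase that detects long double-stranded RNA, was at 5.26 FPKM in sheared Ift88 shRNA cells, 4.59 in sheared control shRNA cells and 6.23 in static control shRNA cells. Its shear ratio was 0.737 (0.659 to 0.823) and its knockdown ratio 1.15 (1.02 to 1.29). Dhx58, which encodes LGP2, a regulator of the other sensors, was at 19.1, 17.4 and 20.7 FPKM, a shear ratio of 0.843 (0.784 to 0.907). Ddx58, which encodes RIG-I, a sensor of short RNA with a triphosphate end, was at 17.2, 14.8 and 18.0 FPKM, with a knockdown ratio of 1.16 (1.09 to 1.23).

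ISG15 is a ubiquitin-like protein that is attached to newly made viral and host proteins. Isg15 was at 34.7 FPKM in sheared Ift88 shRNA cells, 29.98 in sheared control shRNA cells and 35.2 in static control shRNA cells, a knockdown ratio of 1.16 (1.04 to 1.29). Herc6, the main ligase that attaches ISG15 in the mouse, was at 4.60, 4.40 and 5.54 FPKM, with a shear ratio of 0.795 (0.720 to 0.879). Usp18, which removes ISG15 and also dampens the type I receptor, was at 33.98, 33.7 and 37.8 FPKM, a shear ratio of 0.891 (0.837 to 0.949). All 3 were thus lower in sheared control than in static cells, and only Isg15 had a knockdown interval above 1.

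The GTPases of this set act on the membranes around intracellular pathogens and respond strongly to interferon gamma. In the knockdown comparison 3 of the 5 were lower with Ift88 shRNA, which is near the 46.4% of all genes. The intervals of Ifi47 (0.829 to 1.04) and Igtp (0.828 to 1.02) include 1. All 3 sensors were higher, against 53.6% of all genes. With 1 library per group the difference between GTPases and sensors was not tested. Igtp (gene ID 16145), an immunity-related GTPase, was at 10.5 FPKM in sheared Ift88 shRNA cells, 11.4 in sheared control shRNA cells and 15.3 in static control shRNA cells. Its shear ratio was 0.748 (0.679 to 0.824) and its ratio of sheared Ift88 shRNA to static cells 0.688 (0.623 to 0.760). Ifi47 was at 10.8, 11.7 and 13.7 FPKM, lowest with Ift88 shRNA and highest in static cells. Gbp2, a guanylate-binding protein, was at 8.79, 9.94 and 11.2 FPKM; its knockdown ratio of 0.884 (0.799 to 0.978) was the only one below 1 by its interval. Its neighbour Gbp3 was at 3.71, 3.35 and 4.57 FPKM, so that here the sheared control library was lowest. Irgm1, which regulates the other immunity-related GTPases, was the highest of the group at 40.2, 38.4 and 44.5 FPKM.

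The Parp group modifies proteins with ADP-ribose or reads that mark. Parp14, a mono-ADP-ribosyltransferase, was at 25.99 FPKM in sheared Ift88 shRNA cells, 25.7 in sheared control shRNA cells and 31.7 in static control shRNA cells. Its shear ratio was 0.812 (0.786 to 0.839) and its knockdown ratio 1.01 (0.975 to 1.04). The sheared libraries were therefore alike within counting error. Dtx3l, a ubiquitin ligase, was at 12.3, 11.3 and 14.1 FPKM, a shear ratio of 0.805 (0.759 to 0.854). Its partner Parp9 was nearly level at 17.8, 18.2 and 18.7 FPKM, a shear ratio of 0.976 (0.920 to 1.04). The 2 genes overlap by 558 bases, and with no record of strand in the counting their reads cannot be told apart in that stretch. Zc3hav1 encodes ZAP, which binds CpG-rich viral RNA; it was at 32.8, 31.4 and 34.3 FPKM.

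Among the 12 measured other effectors the neighbours Rsad2 and Cmpk2 had the lowest shear ratios. Rsad2 encodes viperin, which makes a chain-terminating nucleotide, and Cmpk2 a kinase that acts on nucleotides; the genes lie 12664 bases apart on chromosome 12. Rsad2 was at 13.5 FPKM in sheared Ift88 shRNA cells, 12.3 in sheared control shRNA cells and 17.7 in static control shRNA cells, a shear ratio of 0.694 (0.650 to 0.741) and a knockdown ratio of 1.10 (1.03 to 1.18). Cmpk2 was at 6.70, 5.77 and 7.82 FPKM, a shear ratio of 0.739 (0.664 to 0.821) and a knockdown ratio of 1.16 (1.04 to 1.29). In both, the static library was highest and the sheared control library lowest.

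Trim30a, a regulator of innate signalling in the mouse, was at 30.8 FPKM in sheared Ift88 shRNA cells, 28.5 in sheared control shRNA cells and 35.3 in static control shRNA cells. Samd9l, an antiviral factor that restrains translation, was at 21.9, 19.8 and 24.1 FPKM. Phf11d was at 2.71, 3.03 and 3.88 FPKM. Trim30a and Phf11d belong to clusters of near-identical genes, and their values are uncertain. Zbp1, a sensor of Z-form nucleic acid that can start cell death, was at 16.2, 17.9 and 20.4 FPKM. Zbp1 and Phf11d were thus highest in static cells and lowest with Ift88 shRNA, as were Mx1, Igtp, Ifi47, Gbp2, Oas1a and Parp9. Among these only Gbp2 had a knockdown interval below 1, and the intervals of the others include 1. Zbp1 had a ratio of sheared Ift88 shRNA to static cells of 0.795 (0.686 to 0.921).

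The remaining members of this group differed less. Rtp4, Ifi35, Xaf1, Eif2ak2 (which encodes PKR, a kinase that halts translation on double-stranded RNA), Adar (which edits such RNA) and Bst2 had shear ratios between 0.874 and 0.964. Their knockdown ratios lay between 1.03 and 1.13. Rtp4, Ifi35 and Xaf1 were the only 3 effectors with a higher level in sheared Ift88 shRNA cells than in static cells, by ratios of 1.01 to 1.04 whose intervals all include 1. The limit on strand holds for all 15 effectors that overlap another annotated gene: Ifit1, Ifih1, Dhx58, Isg15, Usp18, Herc6, Ifi47, Gbp2, Gbp3, Parp9, Dtx3l, Rtp4, Trim30a, Eif2ak2 and Adar.

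Within the set, effectors of lower level had the lower shear ratios. Below the set's median of 14.5 FPKM, 13 of 18 were at least 1.2-fold lower in the shear comparison and the median was -0.36. At or above it, 4 of 19 were and the median was -0.21. Over all genes the shares at least 1.2-fold lower were 3.06% below that level and 1.14% at or above it. Across the 37 effectors the Spearman correlation of the shear log2 ratio was 0.50 with level, 0.47 with GC content and -0.39 with transcript length. Across all genes these were 0.16, 0.34 and -0.26, as descriptions across genes that share their libraries. With log2 ratios centred on genes of like length and GC content, a setting chosen after seeing the data, all 37 effectors were lower in sheared cells still, 12 of them at least 1.2-fold, with a median of -0.22.

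The genes upstream of the effectors had median ratios nearer to 1 in the shear comparison. Of 19 interferon ligand genes in the table none reached 1 FPKM on average, and 15 were listed at 0 in every library; their summed level was 0.059 FPKM in sheared Ift88 shRNA cells, 0.058 in sheared control shRNA cells and 0.107 in static control shRNA cells. At this depth no ligand difference was detectable. None of the 8 measured receptors and kinases was 1.2-fold different in any comparison, and their median shear log2 ratio was -0.04. Of all genes, 2.26% were lower and 1.94% higher by that much in the shear comparison. These shares were 2.29% and 3.25% in the knockdown comparison, and 4.48% and 4.79% against static cells. With 8 genes, none passing is near such shares. The 10 measured transcription factors had a median of -0.13, and 1 was at least 1.2-fold lower, against 2.26% of all genes. That was Irf7, which amplifies the type I response, at 45.2 FPKM in sheared Ift88 shRNA cells, 47.0 in sheared control shRNA cells and 60.1 in static control shRNA cells, a shear ratio of 0.782 (0.743 to 0.824).

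Stat2 and Irf9, which encode transcription factors of the type I response, were lower in sheared control than in static cells by less than 1.2-fold. Stat2 was at 21.7 FPKM in sheared Ift88 shRNA cells, 19.9 in sheared control shRNA cells and 22.9 in static control shRNA cells, with the sheared control library lowest, as for the sensors. Irf9 was at 23.98, 24.3 and 28.7 FPKM in the same order, with a knockdown ratio of 0.987 (0.925 to 1.05).

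Of the 12 adaptors that carry sensor signals, none was 1.2-fold different in the shear comparison. Of all genes 2.26% were lower and 1.94% higher by that much, so none of 12 is near those shares. In the knockdown comparison 1 adaptor was at least 1.2-fold higher, against 3.25% of all genes. Traf3, a ubiquitin ligase on the path to interferon induction, was at 8.72 FPKM in sheared Ift88 shRNA cells, 6.89 in sheared control shRNA cells and 7.39 in static control shRNA cells, a knockdown ratio of 1.27 (1.19 to 1.35). Of the 8 measured feedback inhibitors none passed 1.2-fold in the shear comparison, where 2.26% of all genes were lower and 1.94% higher by that much. In the knockdown comparison 2 were higher, against 3.25% of all genes, and 1 lower, against 2.29%. Socs1, which blocks the receptor kinases, was at 2.76, 1.72 and 1.86 FPKM, a knockdown ratio of 1.60 (1.31 to 1.97). Socs3 was at 1.79, 1.13 and 1.02 FPKM, and Nlrc3, a restraint on nucleic acid sensing, was lower with Ift88 shRNA, at 2.65, 3.67 and 3.53 FPKM. Socs1, Socs3 and Nlrc3 passed 1.2-fold against static cells too, where 4.79% of all genes were higher and 4.48% lower by that much.

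A further list of 109 interferon-stimulated genes outside the 38 had 84 measured members. In the shear comparison 66 of the 84 were lower in sheared cells (53.9% of all genes), 17 of them at least 1.2-fold (2.26% of all genes). At least 1.2-fold higher was 1 (1.94% of all genes), and the median was -0.13. Past 1.2-fold in the knockdown comparison were 6, of which 2 stood higher (3.25% of all genes) and 4 lower (2.29% of all genes) with Ift88 shRNA, shares near those of all genes, and the median of the 84 was 0.04. Against static cells 16 were at least 1.2-fold lower (4.48% of all genes) and none at least 1.2-fold higher (4.79%). Gvin1, a very large interferon-inducible GTPase, was the one higher in sheared control cells, at 2.52 FPKM in sheared Ift88 shRNA cells, 4.76 in sheared control shRNA cells and 2.93 in static control shRNA cells. The others named by size were all lower in both sheared libraries. Ifitm6, a relative of proteins that block viral entry, was at 7.33, 6.32 and 9.52 FPKM, the surface protein gene Ly6a at 6.16, 5.64 and 8.33, and Phf11b, a near copy of Phf11d, at 6.92, 7.76 and 10.85.

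**Figure D5:**
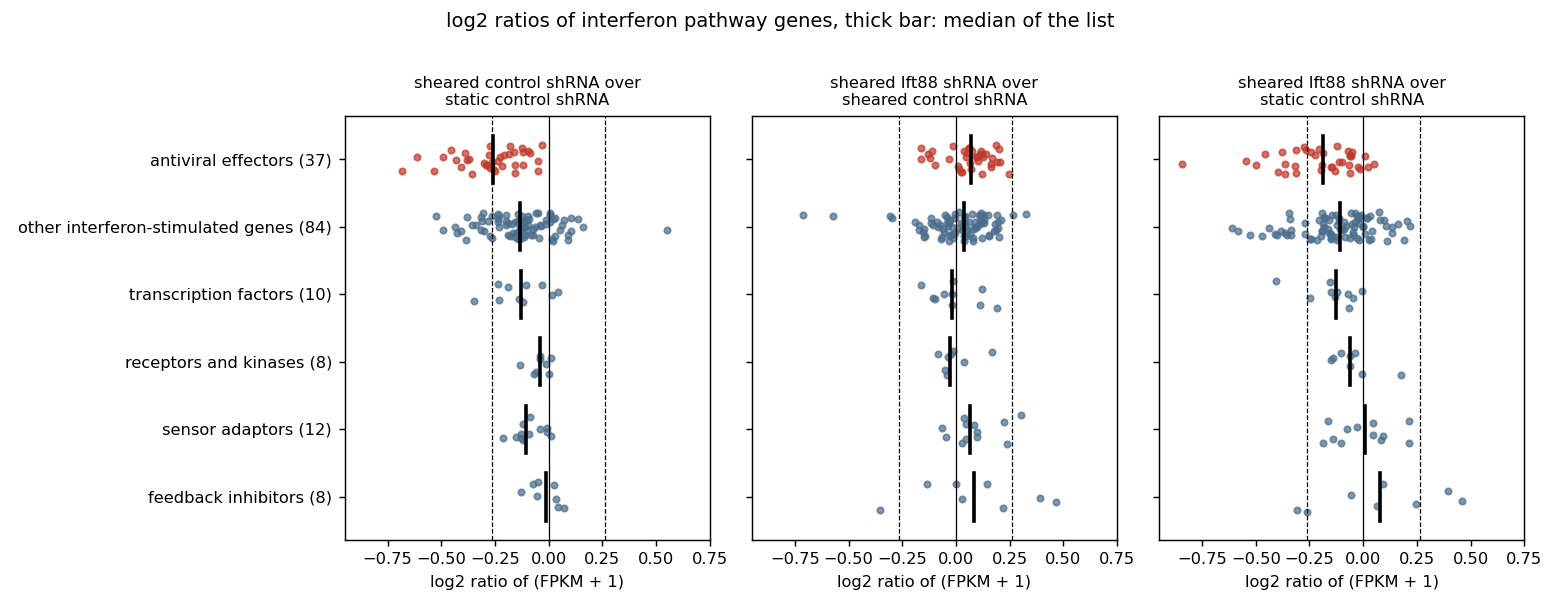
The log2 ratio of FPKM + 1 of each measured gene (points) in the antiviral effectors and the other interferon lists, with the number of genes in brackets, thick bars at the list median and dashed lines at 1.2-fold, for the 3 comparisons. In the left panel the effectors' median is -0.26 and that of the other interferon-stimulated genes -0.13, and the receptors and kinases lie near 0.

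Markers of other cells were read beside these results. Of the 10 listed neutrophil markers with a row, 5 were measured. All 5 were lower in sheared control than in static cells, against 53.9% of all genes. S100a8, S100a9 and Ngp were at least 1.2-fold lower, against 2.26% of all genes. Csf3r and Mmp8 differed less, with shear ratios of 0.926 (0.863 to 0.994) and 0.904 (0.812 to 1.01). Csf3r was lower with Ift88 shRNA, a knockdown ratio of 0.835 (0.774 to 0.900). S100a8, S100a9 and Ngp were higher, 3 of the 5 against 53.6% of all genes. The knockdown intervals of S100a9 (0.925 to 1.72) and Ngp (0.923 to 2.24) include 1, and S100a8 had no interval. The summed level of the list was 45.1 FPKM in sheared Ift88 shRNA cells, 43.4 in sheared control shRNA cells and 77.6 in static control shRNA cells. S100a9 was at 8.38, 6.66 and 22.3 FPKM, with a shear ratio of 0.298 (0.229 to 0.386). The granule genes Ngp (1.45, 1.01 and 4.36 FPKM), Ltf (0.344, 0.431 and 1.23) and Camp (0.136, 0.136 and 0.703) were also highest in static cells. Camp rested on an estimated 3, 3 and 14 fragments. Elane, Mpo and Retnlg were at or near 0. Macrophage and monocyte markers were lower in sheared control than in static cells in 6 of 8 measured members, against 53.9% of all genes. Their median log2 ratio was -0.20. C1qa, C1qb and Fcgr1 were at least 1.2-fold lower, against 2.26% of all genes. C1qb was at 27.5, 30.04 and 38.5 FPKM, and the sum of the list, carried by Cd68 and Csf1r, was 2344, 2339.8 and 2372 FPKM. Of 9 measured osteoclast markers 8 were lower in sheared control than in static cells, against 53.9% of all genes. Their median log2 ratio was -0.41. In that comparison 5 of the 9 were at least 1.2-fold lower, against 2.26% of all genes. Among the 5 was Acp5, which encodes tartrate-resistant acid phosphatase, at 83.0, 52.9 and 97.7 FPKM. Itgb3 was at least 1.2-fold higher (1.94% of all genes), at 8.12, 7.08 and 5.36 FPKM. Atp6v0d2, Nfatc1 and Tnfrsf11a had shear ratios of 0.944, 0.940 and 0.972. The list summed to 414, 339 and 447 FPKM. In the knockdown comparison 6 of the 9 were at least 1.2-fold higher with Ift88 shRNA, against 3.25% of all genes. These were Acp5, Ctsk, Mmp9, Dcstamp, Tnfrsf11a and Slc9b2. None was at least 1.2-fold lower, against 2.29% of all genes. The part of these cells in the effectors' differences was not tested. Plasmacytoid dendritic cells, the main producers of type I interferon, had 3 of 10 markers measured. Siglech, Klk1 and Pacsin1 were at or near 0, and the list summed to 9.73, 9.77 and 8.78 FPKM. Of the 3, Cox6a2 was at least 1.2-fold higher in the shear comparison, against 1.94% of all genes. It was at 2.38, 2.79 and 1.41 FPKM, a shear ratio of 1.98 (1.19 to 3.38). Tcf4 and Runx2 had shear ratios of 0.996 and 0.934. Markers of T and NK cells and of B cells summed to under 1 FPKM in every library. Conventional dendritic cell markers summed to 154, 133 and 151 FPKM and stromal markers to 10.0, 7.68 and 10.4 FPKM, both lowest in the sheared control library. Of the 10 conventional dendritic cell markers 4 were measured. Their sum was carried by Cd74, at 93.4, 81.0 and 90.1 FPKM, and Itgax, at 36.3, 30.9 and 34.3 FPKM. Zbtb46, Flt3, Xcr1, Clec9a, Cd209a and Ccr7 were at or near 0.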

How the data were processed

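Gene-level FPKM values were computed by the authors and deposited in 1 table with 3 columns, 1 for each library; bcl2fastq 1.8.4, Trimmomatic 0.32, TopHat2 2.0.13, Cufflinks 2.2.1 and build mm10 are named per the submitters' processing notes. The sources used here do not give strand settings or annotation.

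From these values log2((FPKM + 1)/(FPKM + 1)) was computed for each pair of libraries over genes with a mean of at least 1 FPKM, and a ratio of 1.2-fold on that scale was called different. With 1 library per group there was no test between groups. Depth was read off the steps between low FPKM values, 61.8% to 63.0% of which were whole within 0.1. The resulting fragments gave 95% Clopper-Pearson intervals. These were run on simulated counts, which checks their coding and not the estimated fragments. Gene IDs were matched to RefSeq GRCm38.p6 (23987 of 24067), the source of coordinates and promoter sequences. Python 3.11.15, pandas 2.3.3 and SciPy 1.17.1 were used.

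The members, lists and the 1.2-fold limit were chosen with earlier results of these data known. Members past 1.2-fold in any comparison, and the highest and lowest-ratio member of each subfamily, are named with all values; Oas3, Oasl2, Ddx58, Isg15, Parp9 and Oasl1 were added after their values were seen. Of other pathway genes, up to 4 a list past 1.2-fold are named, with Stat2, Irf9 and Irf7; 1 further gene named by this rule is not reported here; marker genes were named after their values were seen.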

Additional observations from a re-analysis of the deposited data

How the results depend on the processing

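Under other pseudocounts, filters and scalings, without near-identical copies and after centring on length and GC content, all measured effectors were lower in sheared than in static cells. In those settings, with 31 to 38 effectors measured, 12 to 20 were at least 1.2-fold lower, against 1.35% to 4.20% of all genes. The lowest counts were 12 of 31 at a mean of at least 5 FPKM and 12 of 37 after centring. The highest was 20 of 37 with equal library totals. The median log2 ratio of the effectors ran between -0.28 and -0.22. On the scale with 1 FPKM added, 2 effectors were at least 1.5-fold lower in the shear comparison, against 0.290% of all genes. Against static cells 1 was, against 0.405% of all genes. With 2-fold both counts were 0, where 0.164% and 0.126% of all genes were lower. With a pseudocount of 0.1 the log2 ratio of Mx1 against static cells was -1.07, past 2-fold. With equal library totals 1 effector was at least 1.2-fold higher in the knockdown comparison, against 4.39% of all genes. The scalings moved the all-gene median by at most 0.03. Of 390 values of the 26 members named by rule, 383 stayed within their counting error and 7 moved, all after centring on length and GC content. Depth limits the low genes most. No library could be left out. No paired analysis was possible because each group has 1 library.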
